A study of Homo sapiens with 2 samples.

Results

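Immediate early gene high cells were the cells in which FOS, FOSB, JUN, EGR1 and ATF3 took the largest share of the transcripts. A score was formed for each cell as the summed UMIs (unique molecular identifiers, 1 for each captured RNA molecule) of these 5 genes per 10000 UMIs of the cell. Barcodes with more than 2500 detected genes and less than 7.5% mitochondrial UMIs were kept, and the cells at or above the 95th percentile of the score over both libraries pooled were taken. This gave 1206 cells of 24107 kept cells, out of 29859 barcodes in all. The 5 genes chose the cells, so their levels in these cells are a description and support nothing.

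RWPE1, an immortalized line of normal prostate epithelium that carries a vector only by its label and is called parental in the study's text, was compared with the same line made to express exogenous ERG and myristoylated AKT (RWPE-ERG-mAKT). ERG is an ETS family transcription factor, and the myristoyl group holds AKT at the membrane in an active form. Cells of both cultures were trypsinized and loaded on the 10x Genomics Chromium 3' system, 1 library for each condition. The whole study therefore had 2 libraries and no replicate, no test between conditions was possible, every interval given is at 95% and covers counting error only, and since ERG and mAKT were present together their contributions cannot be told apart. No library of cells taken without trypsin was analysed, so expression in the culture and expression that began during detachment cannot be told apart. Both libraries held the keratin transcripts of basal epithelium, with KRT5 at 2081 CPM (UMIs of the gene per 1000000 UMIs summed over the cells) over the kept RWPE1 cells and at 2020 in the rest of the RWPE-ERG-mAKT cells.

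Immediate early genes are switched on within minutes of a growth factor, cytokine or stress signal, without new protein synthesis, and their mRNAs decay quickly. FOS and FOSB encode partners that join JUN in the AP-1 transcription factor, EGR1 encodes a zinc finger factor driven by ERK through SRF and its ETS partners, and ATF3 encodes a CREB family factor induced by many stresses. In prostate epithelium and its tumours the AP-1 and ETS factors share many enhancers. The products of the programme include its own brakes, among them the dual-specificity phosphatases that inactivate ERK and the ZFP36 proteins that destabilise mRNA.

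The stretches before the start sites of the 5 score genes are shown with the matches they held to some signal-responsive sites. The sequences are from RefSeq on GRCh38.p14, within the 150 bases before the start and cut before any base that the GENCODE annotation places in an exon of the gene, or to the 30 bases around the match for JUN, which GENCODE places in the first exon. They run 5' to 3' on the strand of the gene. Capitals mark each match to TGACGT (the core of a CREB/ATF site), TGACATCA (the JUN-type AP-1/ATF site) or the CArG box (the SRF site), searched on both strands, so that ACGTCA is TGACGT on the other strand.
FOS (chr14:75278678-75278773, plus strand): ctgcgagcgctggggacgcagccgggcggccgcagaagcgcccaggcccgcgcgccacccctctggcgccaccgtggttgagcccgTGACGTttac
FOSB (chr19:45467846-45467994, plus strand): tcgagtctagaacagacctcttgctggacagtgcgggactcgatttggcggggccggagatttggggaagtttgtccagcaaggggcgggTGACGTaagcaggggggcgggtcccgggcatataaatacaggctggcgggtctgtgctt
JUN (chr1:58784096-58784125, minus strand): aggccttggggTGACATCAtgggctatttt
EGR1 (chr5:138465329-138465478, plus strand): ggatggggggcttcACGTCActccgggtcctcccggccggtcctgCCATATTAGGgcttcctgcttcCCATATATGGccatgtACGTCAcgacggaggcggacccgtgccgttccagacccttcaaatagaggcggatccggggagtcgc
ATF3 (chr1:212565257-212565333, plus strand): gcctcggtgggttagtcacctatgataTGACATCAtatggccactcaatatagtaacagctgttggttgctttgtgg
FOS and FOSB each held 1 TGACGT, at 64 to 59 and at 60 to 55 bases before the start. JUN and ATF3 each held 1 TGACATCA, at 67 to 60 and at 123 to 116 bases before the start. EGR1 was the only one of the 5 with CArG boxes in this window, at 105 to 96 and at 83 to 74 bases, beside TGACGT on the other strand at 136 to 131 and at 67 to 62 bases. Bases more than 250 before the start were not searched, so a CArG box of FOS or the others further upstream would not be seen. Of 35116 windows of 300 bases over all genes, 7.98% held TGACGT, 2.61% held TGACATCA and 1.29% held a CArG box. A second start site of ATF3 held none of these letters.

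Nearly all of the high cells were RWPE-ERG-mAKT cells. Of 14140 kept RWPE-ERG-mAKT cells 1192 were over the threshold (8.43%, exact binomial interval 7.98 to 8.90), against 14 of 9967 RWPE1 cells (0.140%, 0.0768 to 0.236), a 60.0-fold difference in share (interval 35.6 to 110). The size of this fold depended on which barcodes were kept. The study's methods set an upper limit on detected genes where the rule used here sets a lower one, so the cells kept here are those that such a limit removes. With 200 to 2500 detected genes and the 95th percentile taken over those barcodes, 10 of 362 RWPE1 barcodes and 147 of 2775 RWPE-ERG-mAKT barcodes were high, a 1.92-fold difference (1.01 to 4.08), at median depths of 1219.5 and 4156 UMIs. The fold was 22.5 (16.2 to 32.3) with at least 200 genes and no upper limit, 23.6 (16.9 to 34.0) with JUN left out of the score, and 121 (58.4 to 301) with the mean of the log levels as the score. The threshold was 11.5 UMIs per 10000. The median score over all kept cells was 5.23 in RWPE-ERG-mAKT and 1.31 in RWPE1, and 2.05% and 16.2% of cells had a score of 0. The whole distribution of RWPE-ERG-mAKT was therefore shifted and the high cells were its upper tail, with no gap at the threshold. The 241 cells just outside it (scores of 10.9 to 11.5) had a median of 13 score UMIs, and so did the 241 cells just inside it (11.5 to 12.2). The highest score was 92.4 in RWPE-ERG-mAKT and 43.4 in RWPE1.

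**Figure D1:**
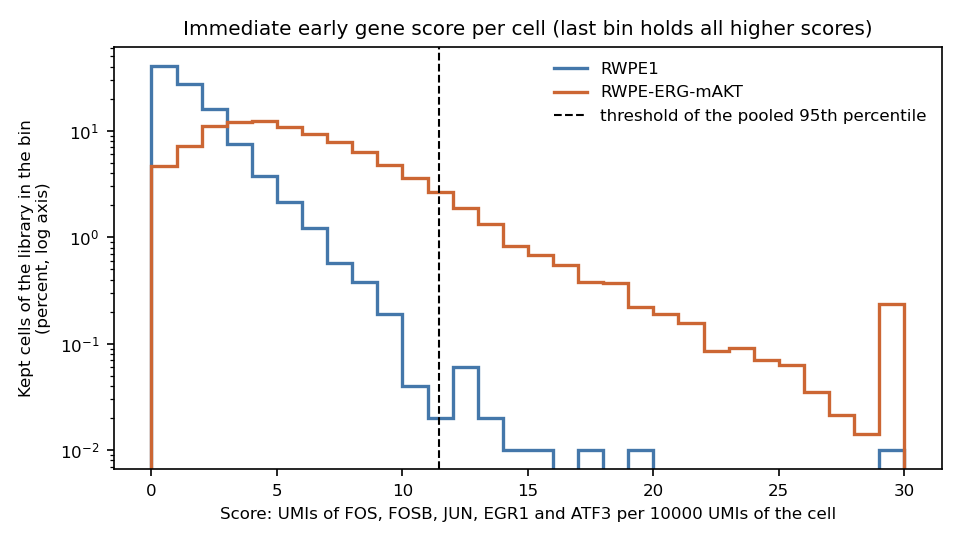
Score per cell (UMIs of the 5 genes per 10000 UMIs, horizontal axis) against the percent of the library's kept cells in each bin (log axis), for RWPE1 and RWPE-ERG-mAKT. The dashed line is the threshold of 11.5, above which lay 0.140% of RWPE1 cells and 8.43% of RWPE-ERG-mAKT cells.

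The high cells were shallower than the others. Their median was 10637 UMIs and 3684 detected genes in RWPE-ERG-mAKT, against 13937.5 UMIs and 4147 genes in the rest, and 12743 UMIs against 16983 in RWPE1. Among RWPE-ERG-mAKT cells ordered by UMIs in 10 equal bins, the share over the threshold was 15.7% in the shallowest bin and 3.32% in the deepest, and the mean score was 6.93 and 5.20. Mitochondrial UMIs had a median of 3.12% in the high cells and 2.69% in the rest. After every cell was thinned to 5000 UMIs and the 95th percentile taken anew, 8.48% of RWPE-ERG-mAKT and 0.261% of RWPE1 cells were high, a 32.5-fold difference (22.1 to 49.99). Summed UMIs were 15106634 in the 1192 high cells and 210014403 in the other 12948 RWPE-ERG-mAKT cells, but only 182034 in the 14 high RWPE1 cells. The libraries shared 55 barcodes. No cell type that should lack these genes was present, so the share of these UMIs that came from free RNA was not measured.

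In the high cells of RWPE-ERG-mAKT, JUN gave 33.1% of the score UMIs, FOS 25.03%, EGR1 21.8%, ATF3 16.7% and FOSB 3.33%. JUN was at 512 CPM in the high cells and 183 in the rest, and was detected in 98.1% and 85.4% of them (89.6% and 56.7% thinned to 5000 UMIs). FOS was at 388 against 110 CPM, and EGR1 at 338 against 139. ATF3 was at 259 against 56.8 CPM but was detected in only 65.9% of the high cells (46.8% thinned), with up to 82 UMIs in 1 cell. FOSB was at 51.6 against 17.4 CPM. All 5 genes were detected together in 295 high cells (24.7%) and in 8.70% of the rest, and 4 of the 5 in another 507 (42.5%).

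The 14 high RWPE1 cells were led by EGR1, at 577 CPM against 66.8 in the rest of RWPE1. JUN was at 423 against 27.9 and ATF3 at 357 against 13.4 CPM. These 2 levels rested on few cells. JUN was detected in 64.3% of the 14 cells, with 30 of its 77 UMIs in 1 cell. ATF3 was detected in 50% of them, with 30 of its 65 UMIs in 1 cell. The rest of RWPE1 lay below the rest of RWPE-ERG-mAKT in each of the 5 genes, by the most for JUN (27.9 against 183 CPM) and by the least for FOSB (16.5 against 17.4, with overlapping intervals). The 14 cells were too few for the ratios of other genes to be read: 5422 of the 9038 genes tested had fewer than 10 UMIs there, and 18.9% and 21.1% of all genes were 1.5-fold higher and lower. For RWPE1 the top 5% of the score within the library (499 cells, score at or above 4.88) is therefore used from here on, chosen after the data were seen. These cells scored far below the RWPE-ERG-mAKT high cells, so the values of the 2 libraries are set side by side and the sets of cells are not equivalent.

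**Figure D2:**
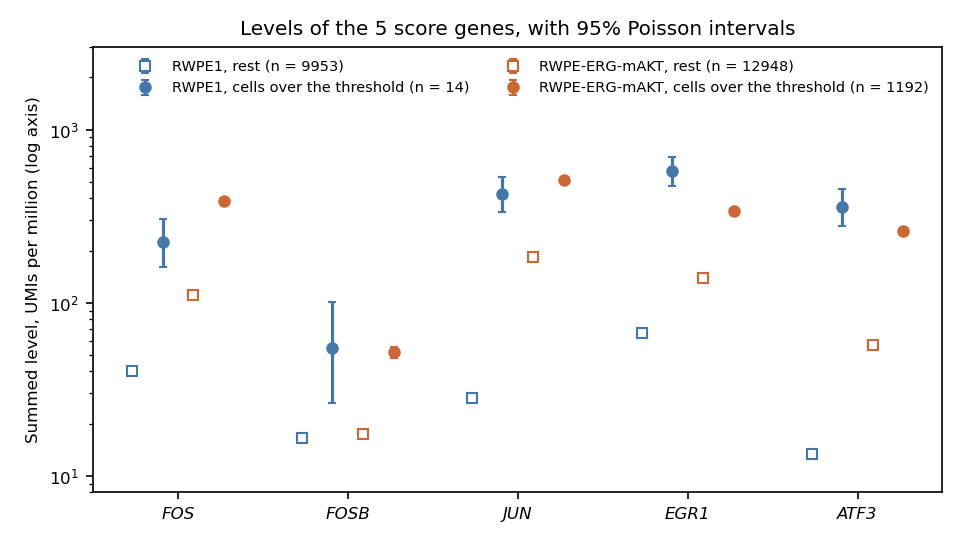
Summed level of the 5 score genes (CPM, log axis) in the cells over the threshold (filled) and the rest (open) of each library, with Poisson intervals. The rest of RWPE1 lay below the rest of RWPE-ERG-mAKT for all 5 genes, from 27.9 against 183 CPM for JUN to 16.5 against 17.4 for FOSB.

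Whether the 5 genes were high in the same cells was then examined with choices of cells that left out the gene measured. In RWPE-ERG-mAKT cells at or above the 95th percentile of the other 4 genes, FOS was at 223 CPM against 122 in the remaining cells (log2 ratio 0.88, 0.82 to 0.93). JUN was at 365 against 194 (log2 ratio 0.91, 0.87 to 0.95), and EGR1 at 239 against 146 (0.71, 0.66 to 0.76). FOSB (log2 ratio 1.19, 1.06 to 1.31) and ATF3 (0.88, 0.81 to 0.95) were higher too. Each of the 5 genes was thus higher in cells chosen without it, by less than in the cells chosen with it. These ratios, and those from random parts below, are a description and were not matched for depth. All 5 genes were divided by the same UMIs of the cell, and the mean score was 6.93 in the shallowest bin and 5.20 in the deepest. The part of depth in these ratios was not tested.

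The UMIs of each cell were also divided at random into 2 equal parts, with cells chosen on 1 part and read in the other. The 1185 RWPE-ERG-mAKT cells chosen this way had a mean score of 17.0 in the part that chose them and 12.3 in the other part, against 5.43 in the remaining cells. Of these cells 37.9% were at or above 12.5, the threshold of the choosing part, in the other part too, against 5.43% of the remaining cells. Chosen on 1 part, ATF3 had a log2 ratio of 1.86 in the other part, FOS of 1.36, JUN of 1.11, FOSB of 1.10 and EGR1 of 0.93.

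Taking the top 5% of cells by 1 gene at a time gave unequal companions. In the 707 RWPE-ERG-mAKT cells with the highest FOS, FOSB was 2.70 times, EGR1 1.62 times and JUN 1.59 times the level of the other cells, whereas ATF3 was 1.17 times. In the cells with the highest ATF3, JUN was 1.71 times the level of the other cells, whereas FOS was 0.99 times and EGR1 1.07 times. JUN went with both: in the cells with the highest JUN, ATF3 was 2.92 times, FOS 1.86 times and EGR1 1.68 times the level of the other cells. In RWPE1, EGR1 was at 2.10 times in the FOS-chosen cells, and in the ATF3-chosen cells JUN was at 2.08 times, FOS at 1.12 times and EGR1 at 1.06 times. This choice by 1 gene was added after the data were seen.

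**Figure D3:**
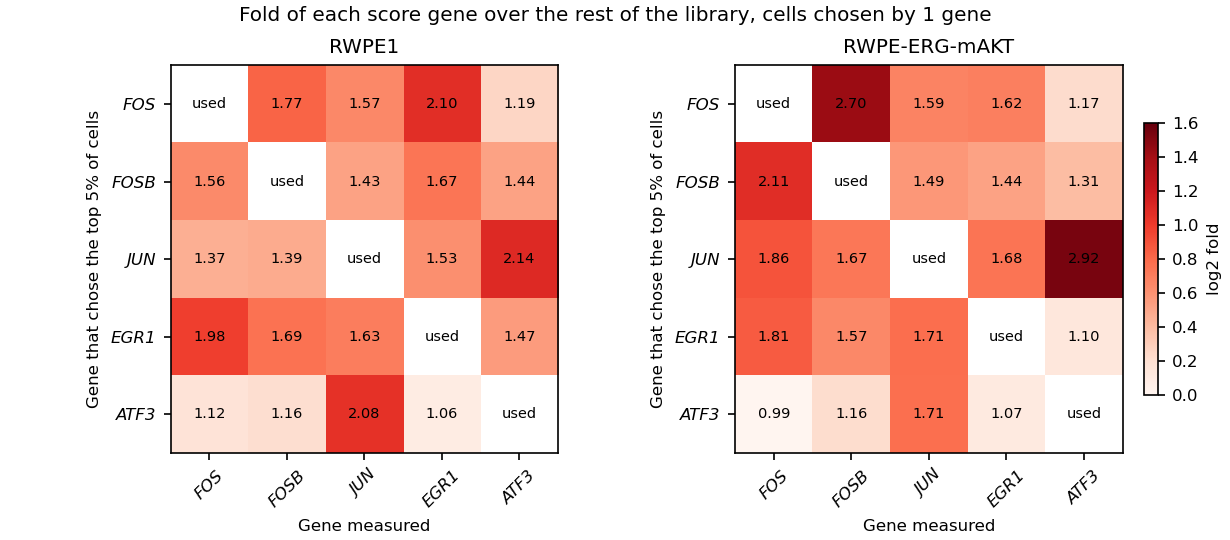
Fold of each score gene (columns) over the other cells of the library in the top 5% of cells by 1 other score gene (rows), in RWPE1 and RWPE-ERG-mAKT. Colour is the log2 fold, and the diagonal is blank because that gene chose the cells. The ATF3 row is pale apart from JUN (2.08 in RWPE1, 1.71 in RWPE-ERG-mAKT).

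All other genes were then compared between the high cells and the rest of the same library. A gene was called at 1.5-fold in either direction if it reached 10 CPM over the library. In RWPE-ERG-mAKT 196 of 8596 genes were higher (2.28%) and 22 were lower (0.256%). Scaling by the median of the ratios, which takes away the median log2 ratio of 0.07 over all genes, gave 129 higher and 48 lower. In the RWPE1 top 5%, 85 of 9038 genes were higher (0.94%) and 43 lower (0.476%), with a median log2 ratio of 0.01. With the top 5% taken in each library, 324 genes were higher (3.77%) and 30 lower (0.349%) in RWPE-ERG-mAKT, and of 8106 genes tested in both, 30 were higher in both, which is 42.9% of the 70 higher in RWPE1 and 11.2% of the 268 higher in RWPE-ERG-mAKT. The 30 genes included the immediate early genes IER2, IER3, JUNB, FOSL1, KLF4, KLF10, ZFP36, PPP1R15A and ID1 and the phosphatases DUSP1, DUSP5 and DUSP6. Among the genes furthest from 0 in RWPE-ERG-mAKT were also SNHG12, a small nucleolar RNA host gene (log2 ratio 1.24), CYP1B1, a xenobiotic oxidase (1.27), and SERPINA3, a protease inhibitor (1.19). Genes named below from the lists, outside the rule for named genes, were picked after their values were seen.

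Other AP-1 subunits were higher in part. Of 9 tested in RWPE-ERG-mAKT, 3 were 1.5-fold higher and none lower (median log2 ratio 0.29, against 0.07 over all genes), and of 8 tested in RWPE1, 2 were higher (median 0.25). JUNB, a JUN relative, was at 141 CPM in the RWPE-ERG-mAKT high cells and 87.7 in the rest (log2 ratio 0.69, 0.63 to 0.76), and at 185 against 86.1 in RWPE1 (1.10, 1.02 to 1.18). FOSL1, which encodes the FOS relative FRA1, was at 147 against 80.8 CPM in RWPE-ERG-mAKT (0.87, 0.80 to 0.93) and at 61.8 against 38.1 in RWPE1 (0.70, 0.56 to 0.83). MAFF, a small MAF partner of these factors, was at 35.7 against 17.8 CPM in RWPE-ERG-mAKT (1.00, 0.87 to 1.13). JUND, which is expressed without a stimulus, had a log2 ratio of 0.41, and FOSL2 of 0.17, both under the 1.5-fold line.

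Among the other immediate early transcription factors, 5 of 14 were higher in RWPE-ERG-mAKT (median log2 ratio 0.53) and 5 of 15 in RWPE1 (median 0.35), and none were lower. IER2, a small nuclear protein of the growth factor response, was at 1297 CPM in the RWPE-ERG-mAKT high cells and 606 in the rest (log2 ratio 1.10, 1.08 to 1.12), and at 117 against 55.2 in RWPE1 (1.08, 0.98 to 1.17). The intervals of these ratios overlapped, while the level of IER2 was higher in RWPE-ERG-mAKT. ID1, an inhibitor of basic helix-loop-helix factors, was at 294 against 182 CPM in RWPE-ERG-mAKT (0.69, 0.65 to 0.74) and at 165 against 61.7 in RWPE1 (1.41). HES1, the Notch-responsive repressor, had log2 ratios of 0.79 and 0.85. MYC, also an immediate early gene in many cells, was at 151 against 153 CPM in RWPE-ERG-mAKT (−0.02, −0.08 to 0.04) and at 178 against 184 in RWPE1.

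Of the immediate early effectors, which are targets and brakes rather than transcription factors, 8 of 17 were higher in RWPE-ERG-mAKT (median log2 ratio 0.49) and 5 of 16 in RWPE1 (median 0.35). IER3, an inhibitor of apoptosis that prolongs ERK signals, was at 160 against 81.3 CPM in RWPE-ERG-mAKT and at 96.8 against 49.2 in RWPE1, a log2 ratio of 0.98 in each. ZFP36, which destabilises AU-rich mRNAs, was at 67.2 against 40.0 CPM in RWPE-ERG-mAKT (0.75, 0.65 to 0.84) and had a log2 ratio of 1.13 in RWPE1. GADD45B, a stress sensor of the p38 and JNK pathways, was at 62.3 against 25.4 CPM in RWPE-ERG-mAKT (1.30, 1.19 to 1.40) but at 36.7 against 34.0 in RWPE1 (0.11, −0.06 to 0.28). In the RWPE-ERG-mAKT high cells, however, 10 cells held 28.7% of the GADD45B UMIs. At least 5 of its UMIs were found in 43 of the 1192 high cells (3.61%) and in 1.30% of the rest. The matrix protein genes CCN1 (log2 ratio 0.78) and CCN2 (1.01) passed 1.5-fold in RWPE-ERG-mAKT and not in RWPE1 (0.22 and 0.53).

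The ERK feedback and output genes were measured because ERK drives FOS and EGR1. Of 11 tested in RWPE-ERG-mAKT, 5 were higher (median log2 ratio 0.53), and of 12 tested in RWPE1, 5 were higher (median 0.57). In each library IER3 and FOSL1 were among the 5, and both are also counted in the lists above. DUSP6, the ERK-specific phosphatase, was at 18.9 against 10.3 CPM in RWPE-ERG-mAKT (0.88, 0.69 to 1.05) and at 66.3 against 34.1 in RWPE1 (0.96, 0.83 to 1.09). DUSP5, a nuclear ERK phosphatase, had log2 ratios of 0.70 and 0.79, and DUSP1 of 0.53 and 0.76. SPRED1, a RAS pathway inhibitor, had a log2 ratio of 0.66 in RWPE-ERG-mAKT, which was 0.19 in high cells chosen anew after thinning to 5000 UMIs. The ETS factors ETV4 and ETV5 were under 10 CPM in RWPE-ERG-mAKT and had log2 ratios of −0.21 and 0.18 in RWPE1.

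Of the EGF receptor family and its ligands, 3 of 7 tested were higher in RWPE1, EREG (log2 ratio 1.18), ERRFI1 (0.84) and TGFA (0.59), and 0 of 4 in RWPE-ERG-mAKT. The cytoskeletal targets of SRF and YAP had 2 of 12 higher in RWPE-ERG-mAKT, CCN1 and CCN2, and 0 of 13 in RWPE1. ACTB, the actin gene with its own CArG boxes, had a log2 ratio of −0.21 and −0.16.

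**Figure D4:**
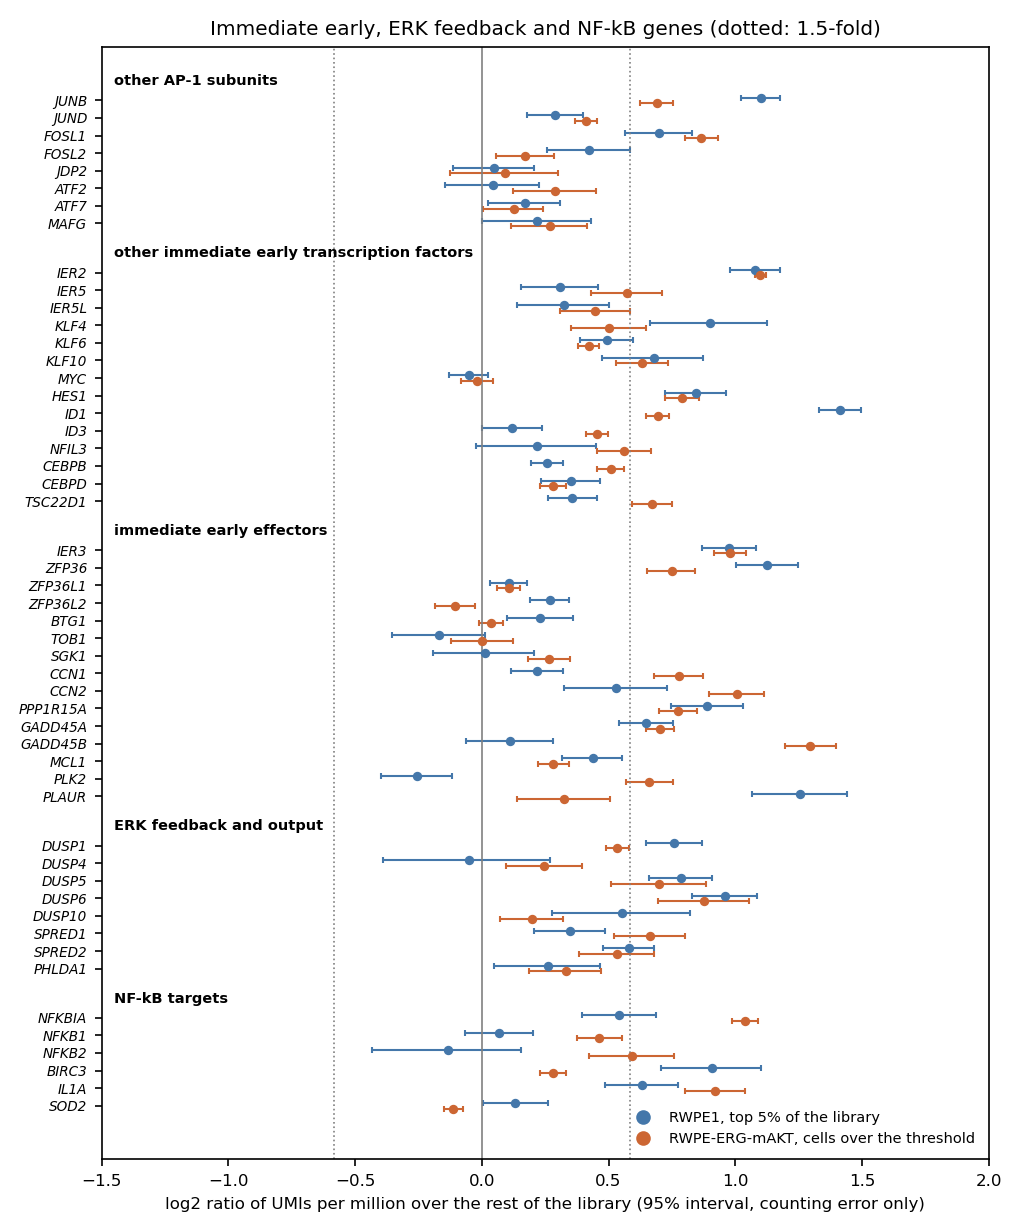
Log2 ratio of CPM over the rest of the library for genes of 5 lists with at least 10 CPM in both libraries, in the RWPE-ERG-mAKT cells over the threshold and in the RWPE1 top 5%, with intervals. Dotted lines are 1.5-fold. IER2 and IER3 lay at like ratios in both libraries, and GADD45B, CCN1 and NFKBIA were further right in RWPE-ERG-mAKT, ID1, JUNB and PLAUR in RWPE1.

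NF-kB is a factor that cytokine and stress signals release from the inhibitor encoded by NFKBIA. Of its 9 targets tested in RWPE-ERG-mAKT, 6 were higher, NFKBIA, TNFAIP3, NFKB2, RELB, CCL20 and IL1A (median log2 ratio 0.59), and of 8 tested in RWPE1, 2 were higher, BIRC3 and IL1A (median 0.19). NFKBIA was at 232 CPM in the RWPE-ERG-mAKT high cells and 113 in the rest (1.04, 0.99 to 1.09). TNFAIP3, which encodes the A20 brake of the pathway, was at 115 against 31.6 CPM (1.86, 1.78 to 1.94). CCL20, a chemokine, was at 92.5 against 14.5 CPM (2.67, 2.58 to 2.77), and IRF1, an interferon and NF-kB responsive factor, at 134 against 48.7 (1.46, 1.39 to 1.53).

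The differences of TNFAIP3, CCL20, IRF1 and EFNA1 lay largely in few cells, that of NFKBIA less so. TNFAIP3 was detected in 23.3% of the high cells and 21.3% of the rest (15.3% and 9.88% with every cell thinned to 5000 UMIs), while 84 of the 1192 high cells (7.05%) and 2.12% of the rest had at least 5 of its UMIs. CCL20 was detected in 12.4% and 7.68% (9.01% and 3.57% thinned), and 10 cells held 44.3% of its UMIs in the high cells. For IRF1 and EFNA1, an ephrin with log2 ratio 1.73, 10 cells held 26.3% and 28.9% of the UMIs. NFKBIA was detected in 66.5% of the high cells and 67.7% of the rest (44.9% and 37.2% thinned), 171 high cells (14.3%) and 9.48% of the rest had at least 5 of its UMIs, and 10 cells held 15.01% of its UMIs in the high cells. For FOSL1 10 cells held 5.48%.

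Stretches before the start of NFKBIA, TNFAIP3 and CCL20 are shown because these genes led the NF-kB list in the high cells. They were cut as above, to the 30 bases around the matches for TNFAIP3, which also lie in an exon by GENCODE. Capitals mark matches to the NF-kB site on either strand.
NFKBIA (chr14:35404750-35404899, minus strand): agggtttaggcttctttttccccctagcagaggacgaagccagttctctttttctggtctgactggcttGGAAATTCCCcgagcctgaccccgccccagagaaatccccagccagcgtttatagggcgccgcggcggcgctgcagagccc
TNFAIP3 (chr6:137867188-137867217, plus strand): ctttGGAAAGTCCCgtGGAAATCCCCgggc
CCL20 (chr2:227813692-227813821, plus strand): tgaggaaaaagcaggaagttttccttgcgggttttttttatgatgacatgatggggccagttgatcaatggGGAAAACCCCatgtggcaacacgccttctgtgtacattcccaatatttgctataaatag
NFKBIA held a match at 81 to 72 bases before the start, TNFAIP3 held 2 matches at 67 to 58 and at 55 to 46, and CCL20 a match at 79 to 70. The letters of this site were in 11.3% of all windows. They were in the windows of 16.5% of the tested genes found in RefSeq (7200 of 8596) and of 24.7% of the higher genes (40 of the 162 found, of 196). TGANTCA, the AP-1 site with N for any base, was in 13.6% of the windows of the higher genes and 6.61% of the tested genes, TGACGT in 16.7% and 15.5%, and a CArG box in 2.47% and 1.53%. A match of letters is a description of the window and not a measurement of binding.

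More of the interferon response genes were called in RWPE1. In RWPE1 6 of 8 were higher (median log2 ratio 0.90), and in RWPE-ERG-mAKT 2 of 12 (median 0.41), and the difference was not tested. IFIT2 was at 58.2 against 21.8 CPM in RWPE1 (1.42, 1.28 to 1.56) and had a log2 ratio of 0.91 in RWPE-ERG-mAKT. In RWPE1, however, IFIT2 was detected in 8.82% of the top cells and 6.88% of the rest (5.81% and 3.42% thinned). Of its UMIs in the top cells, 10 cells held 75.4%. In RWPE-ERG-mAKT IFIT2 was detected in 8.31% of the high cells and 9.82% of the rest (5.31% and 4.59% thinned). There 10 cells held 57.1% of its UMIs in the high cells. ISG15, a ubiquitin-like interferon product, had log2 ratios of 0.87 in RWPE1 and 0.36 in RWPE-ERG-mAKT. In RWPE1 it was detected in 47.1% of the top cells and 47.3% of the rest (25.1% and 22.1% thinned), and 10 cells held 47.9% of its UMIs, with up to 387 in 1 cell.

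Of 12 p53 targets tested in each library, 4 were higher in RWPE-ERG-mAKT (GDF15, PMAIP1, MDM2 and RRM2B, median log2 ratio 0.41) and 3 in RWPE1 (PMAIP1, GDF15 and CDKN1A, median 0.25). PMAIP1, which encodes the cell death factor NOXA, was at 41.4 against 21.8 CPM in RWPE-ERG-mAKT (0.92, 0.80 to 1.04). ATF4 and CHOP stress genes had 2 of 14 higher in RWPE-ERG-mAKT and 3 of 15 in RWPE1. DDIT3, which encodes CHOP, was among the 3, with a log2 ratio of 1.01. With the top 5% taken within RWPE-ERG-mAKT instead, 5 of 14 were higher, DDIT3 among them. Of 13 heat shock genes 0 were called in either library, with median log2 ratios of −0.04 and −0.13, and HSPA1A, the inducible chaperone HSP70, was at 57.3 against 54.3 CPM in RWPE-ERG-mAKT.

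Histone genes of S phase were higher in RWPE-ERG-mAKT in 6 of 7 (median log2 ratio 0.98) and in RWPE1 in 0 of 6 (median 0.08). HIST1H1C, a linker histone, was at 147 against 66.0 CPM in RWPE-ERG-mAKT (1.16, 1.09 to 1.22). It was detected in 52.8% of the high cells and 47.9% of the rest (32.8% and 24.3% thinned). Of its UMIs in the high cells, 10 cells held 24.955%, with up to 117 in 1 cell. The counts of HIST1H1C and its relatives are uncertain, because histone genes are near copies and most of their mRNAs lack a poly(A) tail. The S phase list itself had 0 of 24 genes called and a median log2 ratio of 0.07 in RWPE-ERG-mAKT. Mitosis genes had 0 of 22 called in RWPE-ERG-mAKT (median 0.15), and 4 of 22 lower in RWPE1 (median −0.39), among them PLK1, a mitotic kinase (26.3 against 52.6 CPM, log2 interval −1.21 to −0.81), and UBE2C, a ubiquitin enzyme of mitotic exit (−0.89). Metallothioneins, which bind zinc and copper, had 1 of 4 higher in RWPE-ERG-mAKT, MT1X at 862 against 565 CPM (0.61).

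The lower genes of the RWPE-ERG-mAKT high cells were few. Of 9 squamous differentiation genes 3 were lower and none higher (median log2 ratio −0.45), and in RWPE1 1 of 8 was lower and 1 higher (−0.05). S100A8, a calcium-binding alarmin, was at 20.4 CPM in the high cells and 76.6 in the rest (−1.91, −2.08 to −1.75), and its partner S100A9 at 110 against 210 (−0.93). S100A8 was detected in 13.6% and 20.1% of cells (6.74% and 10.2% thinned), with up to 1364 UMIs in 1 cell of the rest. In RWPE1 S100A8 had a log2 ratio of −0.90 and S100A9 of −0.43. FABP5, a fatty acid binding protein of the epidermis, was at 254 against 492 CPM in RWPE-ERG-mAKT (−0.96) but had a log2 ratio of −0.08 in RWPE1. PI3, which encodes the protease inhibitor elafin, was at 14.2 against 27.1 CPM in RWPE-ERG-mAKT (−0.94) and at 17.3 against 44.4 in RWPE1 (−1.36). Its log2 ratio in RWPE-ERG-mAKT was 0.70 when every cell was thinned to 5000 UMIs and the high cells were chosen anew on the thinned score. In the original high cells, thinned in the same way, PI3 was detected in 4.97%, against 6.05% of the rest. S100A9 had a log2 ratio of −0.19 with the cells chosen anew, and was detected in 26.5% of the original high cells and 28.6% of the rest after thinning. KRT6B, an activation keratin, was at 85.8 against 142 CPM in RWPE-ERG-mAKT (−0.72), with the caveat that KRT6A and KRT6B are near copies. KRT6B was detected in 31.8% of the high cells and 48.2% of the rest (17.3% and 28.3% thinned). In the high cells 10 cells held 31.6% of its UMIs.

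Lineage genes differed little. Of 14 basal epithelium genes, 0 were called in RWPE-ERG-mAKT (median log2 ratio 0.13) and 1 was higher in RWPE1 (KRT14, 0.63). Luminal epithelium genes had 1 of 7 higher in RWPE-ERG-mAKT (CLDN4, a tight junction gene, 0.62) and 0 of 7 in RWPE1. Mesenchymal genes had 0 of 8 called in RWPE-ERG-mAKT, where VIM had a log2 ratio of −0.57. ERG was at 21.7 CPM in the RWPE-ERG-mAKT high cells and 20.7 in the rest (0.07, −0.10 to 0.23), and AKT1 at 19.5 against 19.1 (0.03, −0.14 to 0.20). These counts do not tell transgene from endogenous transcripts. ERG was at 1.44 CPM over all RWPE1 cells.

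Markers of other cell types were read in the high cells of RWPE-ERG-mAKT as well. Cells with at least 2 UMIs of the fibroblast list were 7.30% of the high cells and 8.06% of the rest, with a summed level of 31.6 and 26.5 CPM, led by DCN, and 3 of the 8 genes were at 0 in the high cells. The endothelial list gave 0.755% and 1.75%, the immune list 1.68% and 3.24% and the neuroendocrine list 0.587% and 0.996%. The microglia list gave 0 cells in both, with 7 of its 8 genes at 0 in the high cells. The choroid plexus list gave 0.0839% of the high cells and 0 of the rest. The part of these RNAs in the results was not tested.

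The high cells of RWPE-ERG-mAKT were not alike. Each was placed by the score gene with most UMIs, which is part of the rule. JUN led in 421 cells (35.3%), FOS in 347 (29.1%), EGR1 in 178 (14.9%) and ATF3 in 113 (9.48%). FOSB led in 0 cells and 133 (11.2%) were tied. The ATF3-led cells had the highest median score, 16.4, the highest median depth, 13153 UMIs, and the lowest mitochondrial share, 2.22%. Over all genes 13.1% were higher and 3.96% lower in the ATF3-led cells than in the rest of the library, against 4.54% and 2.12% in the FOS-led, 5.75% and 2.28% in the EGR1-led and 2.57% and 0.489% in the JUN-led cells.

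NF-kB targets were highest in the ATF3-led cells. In the ATF3-led cells 9 of 9 were higher than in the rest of the library (median log2 ratio 2.10), in the JUN-led cells 4 of 9 (median 0.55), in the FOS-led cells 0 of 9 with 3 lower (median −0.37), and in the EGR1-led cells 0 of 9 with 1 lower (median −0.48). TNFAIP3 was at 350 CPM in the ATF3-led, 146 in the JUN-led, 38.4 in the EGR1-led and 20.4 in the FOS-led cells, against 31.6 in the rest of the library. At least 5 UMIs of TNFAIP3 were found in 36 of the 113 ATF3-led cells (31.9%), 41 of the 421 JUN-led cells (9.74%), 1 of the 347 FOS-led cells (0.288%) and 1 of the 178 EGR1-led cells (0.562%). BIRC3, an inhibitor of apoptosis, was at 693 CPM in the ATF3-led cells against 187 in the rest, and SOD2, the mitochondrial superoxide dismutase, at 985 against 423. Over all high cells neither of these passed 1.5-fold (log2 ratios 0.28 and −0.11).

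The ATF3-led cells were also higher in 8 of 12 p53 targets (median log2 ratio 0.98), 7 of 12 interferon genes (0.84), 9 of 14 ATF4 and CHOP stress genes (0.72) and 8 of 24 S phase genes (0.51), and lower in 5 of 22 mitosis genes (−0.45). CDKN1A, the p21 brake of the cell cycle, was at 350 CPM in them and 101 in the rest of the library. GADD45A was at 529 against 115 CPM, PMAIP1 at 173 against 21.8 and ISG15 at 1110 against 253. Leaving out the ATF3-led cells took the log2 ratio of PMAIP1 over all high cells from 0.92 to 0.17, of IFIT2 from 0.91 to 0.29, of KLF10 from 0.63 to 0.22 and of SNHG12 from 1.24 to 0.41, all below 1.5-fold, whereas TNFAIP3, CCL20, NFKBIA and IRF1 were still above it.

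The AP-1 and ERK feedback lists had as many genes called in the FOS-led as in the ATF3-led cells. Other AP-1 subunits were higher in 3 of 9 in each (median log2 ratios 0.21 and 0.44), ERK feedback genes in 4 of 11 in each (0.49 and 0.31), and SRF and YAP targets in 1 and 3 of 12. Over all genes 4.54% were higher in the FOS-led and 13.1% in the ATF3-led cells. The remaining immediate early lists had more genes called in the ATF3-led cells. Other immediate early transcription factors were higher in 4 of 14 FOS-led and 10 of 14 ATF3-led (0.19 and 1.10). Immediate early effectors were higher in 2 and 10 of 17 (0.22 and 0.87), and in each list 1 gene was lower in the ATF3-led cells. Single genes, picked after their values were seen, were lower in the ATF3-led cells. FOSL1 was at 163 CPM in the FOS-led and 174 in the EGR1-led cells, against 84.4 in the ATF3-led cells and 80.8 in the rest of the library. ID1 was at 376 in the FOS-led and 121 in the ATF3-led cells, against 182 in the rest. DUSP6 was at 25.8 in the FOS-led and 8.79 in the ATF3-led cells, against 10.3 in the rest, and CCN2 at 61.6 and 33.4, against 26.1. IER2 did not follow either order, at 1370, 1303, 1301 and 1298 CPM in the FOS-led, EGR1-led, JUN-led and ATF3-led cells, against 606 in the rest. Metallothionein MT2A was at 3669 CPM in the FOS-led and 2512 in the ATF3-led cells. Squamous genes were lower in 5 of 9 in the FOS-led cells (median log2 ratio −0.63), where 2.12% of all genes were lower. They were lower in 6 of 9 in the tied cells (−0.70), where 2.14% of all genes were lower.

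**Figure D5:**
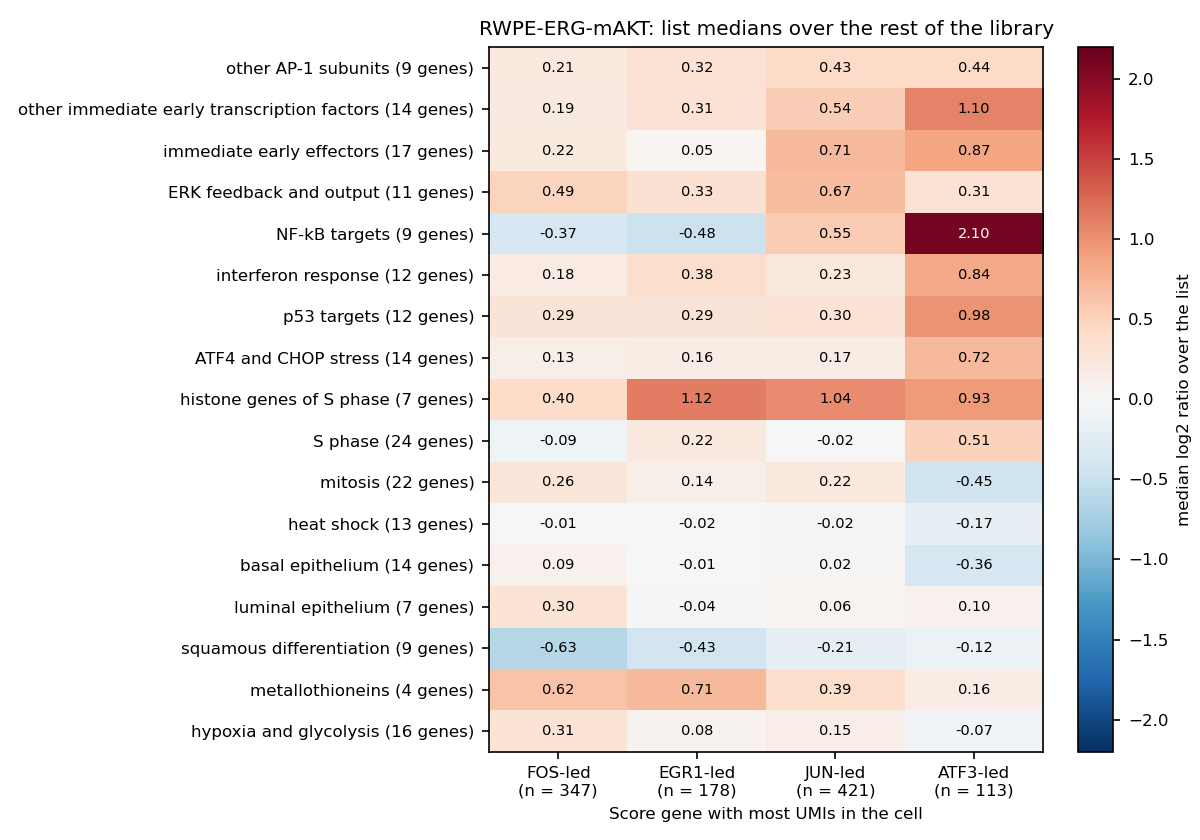
Median log2 ratio over the rest of RWPE-ERG-mAKT for 17 gene lists (rows, with the number of genes tested) in the high cells led by FOS, EGR1, JUN or ATF3 (columns, with the number of cells). NF-kB targets ran from −0.48 in the EGR1-led and −0.37 in the FOS-led cells to 2.10 in the ATF3-led cells.

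The RWPE1 top 5% had another make-up. EGR1 led in 301 of the 499 cells (60.3%), FOS in 66, JUN in 52 and ATF3 in 13. The 52 JUN-led cells stood apart: squamous genes were higher in 6 of 8 (median log2 ratio 2.04), with KRT16 at 439 CPM, S100A9 at 385 and S100A8 at 154, other immediate early transcription factors in 11 of 15 (1.26), p53 targets in 7 of 12 (0.79) and mesenchymal genes in 5 of 8 (1.31). Mitosis genes were lower in 12 of 22. Over all genes 9.08% were higher and 9.92% lower in these cells. In the EGR1-led cells 0.708% of all genes were higher and 0.907% lower, and 6 of 12 ERK feedback genes (median log2 ratio 0.49) and 3 of 8 interferon genes were higher. S100A8 and S100A9 rested on very few cells: 10 cells held 93.8% and 82.5% of their UMIs in the RWPE1 top 5%, and 2 and 8 of the 499 cells had at least 5 UMIs.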

How the data were processed

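Single-cell RNA was measured in 2 libraries, 1 for RWPE1 and 1 for RWPE-ERG-mAKT, each from an input of 10000 cells. The authors deposited raw UMI counts per gene and barcode for 36601 features, and the submitters' processing notes name Cell Ranger 7.1.0 and hg38. Samples were grouped by their labels. Members and gene lists were chosen with earlier results of these data known. UMIs were summed over the cells compared within a library and divided by their total, and ratios were given with exact 95% intervals for Poisson counts, shares with Clopper-Pearson intervals, all of which cover counting error only. No doublet caller was used. The 12 genes with the largest and the 12 with the smallest mean log2 ratio over both libraries, and up to 4 genes of each of 34 lists, were the ones to be named. As the rule left 14 RWPE1 cells, the same rule was also run on the top 5% within each library and on RWPE-ERG-mAKT alone, both chosen after seeing the data. The gene step was run on counts simulated from the Poisson model that the intervals assume. Uneven spread of UMIs over cells was not simulated, so that run cannot show how the intervals fare with it. Scripts ran in Python 3.11.15 with pandas 2.3.3, scipy 1.17.1 for the intervals, matplotlib 3.10.9 for the plots, and numpy 2.4.6. Gene positions and exons were from GENCODE and promoter windows from RefSeq.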

Additional observations from a re-analysis of the deposited data

Results flagged for a closer look

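GAS2L3, a gene for a cytoskeletal linker, went in opposite directions in the libraries: the top 5% had 18.4 CPM against 29.8 in the rest of RWPE1 (log2 ratio −0.70), but 40.9 CPM against 26.3 in RWPE-ERG-mAKT (log2 ratio 0.63). CPM is UMIs of the gene per 1000000 UMIs. The difference between the libraries was not tested.

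Barcodes left out by the filters also reached the score threshold. Among barcodes with 2500 or fewer genes and less than 7.5% mitochondrial UMIs, 6.91% of 362 in RWPE1 and 13.0% of 2775 in RWPE-ERG-mAKT did so. These barcodes were shallow, with median depths of 1219.5 and 4156 UMIs, and those over the threshold had a median of 1 score UMI in RWPE1 and 5 in RWPE-ERG-mAKT, so that 1 captured molecule could place a barcode over it. In RWPE-ERG-mAKT, 14.95% of 107 barcodes with more genes but 7.5% or more mitochondrial UMIs and 16.5% of 333 barcodes failing both filters were over it. Those over the threshold had medians of 11.5 and 4 score UMIs.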

How the results depend on the processing

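No paired analysis was possible because each condition had 1 library. The share of high cells in RWPE1 and RWPE-ERG-mAKT was 0.321% and 16.8% at the 90th percentile, 0.0301% and 1.69% at the 99th, 2.76% and 5.30% with 200 to 2500 genes, and 0.349% and 7.85% with at least 200 genes. It was 8.94% in RWPE-ERG-mAKT without the mitochondrial filter, and in RWPE1 0.261% after thinning, 0.0702% with a log scale score and 0.351% without JUN. In RWPE-ERG-mAKT the genes called higher numbered 105 at the 90th and 598 at the 99th percentile, 324 with the top 5% within the library, 118 after thinning, 129 with median-of-ratios scaling, 946 from 1 CPM and 28 from 50. Genes called lower numbered 93 at the 99th percentile, 48 with that scaling, 146 from 1 and 5 from 50 CPM, 40 without ATF3-led and 35 without JUN-led cells. List genes called higher numbered 28, 73, 75 and 14 at the 90th and 99th percentile and from 1 and 50 CPM. In the RWPE1 top 5%, genes higher numbered 52 and 344 at those percentiles, 44 after thinning, 500 from 1 and 13 from 50 CPM, and genes lower 17, 372, 28, 352 and 13, with 69 lower in random parts. List genes there numbered 70 at the 99th percentile, 21 after thinning, 66 and 11. For the 14 RWPE1 cells the counts higher and lower were 781 and 1098, 2563 and 3419, 3259 and 4873, and 419 and 439 at both percentiles and both floors, and ratios within 3 bins of depth were not run for them. In random parts the score genes together had log2 ratios of 2.65 in RWPE1 and 1.23 in RWPE-ERG-mAKT. PI3 in RWPE-ERG-mAKT reversed to 0.70 after thinning, a setting in which the high cells were chosen anew. The cause of these changes was not tested. Of 887 values of 58 called genes in RWPE-ERG-mAKT, 886 kept their sign and 801 were past 1.5-fold, and of 659 values of 46 genes in RWPE1, 659 and 572.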
